A study of Arabidopsis thaliana with 5 samples.

Results

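Ethylene acts on etiolated seedlings and older plants through a set of output genes that shape the hook, change organ growth, lengthen root hairs, start senescence and arm defence. The 7 genes described here carry such outputs: HLS1 (AT4G37580), ARGOS (AT3G59900), ARL (AT2G44080), RSL4 (AT1G27740), ORE1 (AT5G39610), CHIB (AT3G12500) and PDF1.2 (AT5G44420). They were named by locus, out of 27444 nuclear protein-coding genes, with earlier results of these data known. A gene was said to carry a peak when any base of a peak lay in the gene or in the 2000 bp on either side. By the sample labels, the peaks were those of TREE1 fused to green fluorescent protein (GFP). They were mapped by chromatin immunoprecipitation and sequencing (ChIP-seq) with an anti-GFP antibody. All samples were shoot tissue of one Arabidopsis thaliana line, TREE1p::TREE1-GFP, in which the TREE1 promoter drives the fusion. Seedlings were 3 days old, grown in darkness, and then kept for 4 h in 10 ppm ethylene (2 ChIP libraries) or in hydrocarbon-free air (1 ChIP library). Each treatment had 1 input library without antibody, which entered here only through the peak calls. ChIP from a line without the tag was not analysed here, and the labels do not say whether the endogenous TREE1 gene was intact.

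As background, ethylene stabilises the transcription factor EIN3, which switches on or off the genes that carry the response. HLS1 encodes an acetyltransferase-like protein without which the apical hook of a dark-grown seedling does not form. ARGOS and its relative ARL encode small membrane proteins that promote organ growth, and ARGOS also dampens ethylene sensitivity. RSL4 encodes a basic helix-loop-helix factor that drives root hair elongation, and ORE1 a NAC factor that promotes leaf senescence. CHIB, a basic chitinase, and PDF1.2, a defensin, are classical markers of ethylene and of jasmonate-ethylene defence. The series title places TREE1 with EIN3 in transcriptional repression and shoot growth.

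Ethylene library 1 was the shallowest, with 5884897 tags kept after duplicate removal, against 9459860 in ethylene library 2 and 9325092 in air. The lists held 9156, 9958 and 8602 peaks in ethylene library 1, ethylene library 2 and air. Score and fold enrichment are the authors' values from MACS, a peak caller. The score is minus 10 times the log10 of the p-value, so that the cutoff p of 1e-05 is a score of 50. Tags of a peak and summit height (the tag pileup at the summit) are not scaled to depth. With 1 air library against 2 ethylene libraries, an exact permutation test over libraries cannot give a p below 0.333, so differences between treatments are described and not tested. Nothing in the labels tells if the pair of ethylene libraries came from separate batches of seedlings, and all intervals below cover counting error only.

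Of the 7 genes, 4 carried a peak in each ethylene library, the same 4 in both, and 3 did so in air. HLS1, ARGOS and ARL carried one in all 3 libraries, CHIB in both ethylene libraries and not in air, and RSL4, ORE1 and PDF1.2 in none. Over all coding genes, 49.0% carried a peak in ethylene library 1, 49.9% in ethylene library 2 and 47.1% in air, so the counts of 4, 4 and 3 of 7 lay near the background. The same holds for the 3 genes with a peak in all libraries, against 32.7% of coding genes, and for the 3 with none, against 35.8%. For the 4 genes with a peak in both ethylene libraries the background was 39.5%, and 59.4% of coding genes had a peak in either. Peaks in both ethylene libraries and not in air were found at 6.77% of coding genes and at 1 of the 7. No member carried a peak in air and in neither ethylene library, a class that held 4.82% of coding genes. The 4 genes had 18 peaks between them, 5 in ethylene library 1, 8 in ethylene library 2 and 5 in air.

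Peaks of different libraries that shared at least 1 bp were joined into stretches, 8 at the members and 13729 in the genome. Of the 8, 2 were called in all libraries (HLS1 and the ARL gene), against 35.3% of all stretches. Joining can run through another peak: the ethylene peaks at HLS1 share no base and meet only through the air peak. Another 2 were called in both ethylene libraries and not in air (CHIB and one end of ARGOS), against 11.3%. The outer stretches of ARGOS and ARL were called in ethylene library 2 and air, against 8.73%. The remaining 2, both at ARGOS, were called in ethylene library 1 alone (11.2% of all stretches) or ethylene library 2 alone (15.1%). With 8 stretches from 4 genes, these shares are given as a description.

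**Figure D1:**
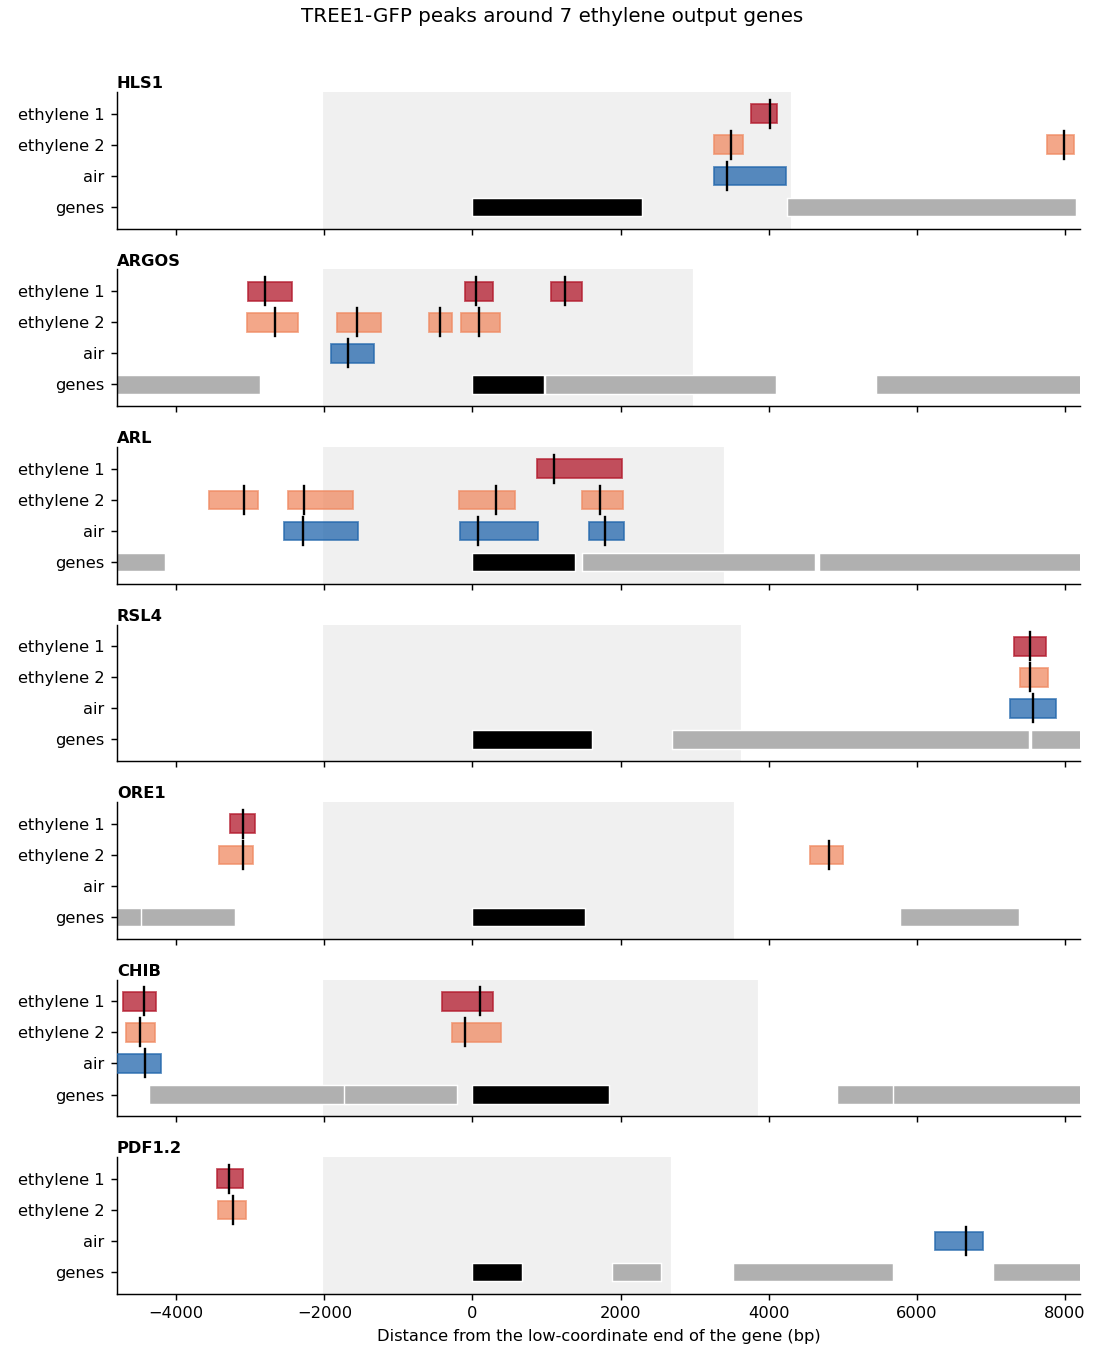
Peaks around each of the 7 genes, by distance in bp from the low-coordinate end of the gene. Coloured bars are peaks with the summit as a black line, for ethylene library 1, ethylene library 2 and air from top to bottom; black boxes are the named genes, grey boxes other coding genes, and light shading marks the gene with 2000 bp on either side. CHIB has peaks in both ethylene libraries and none in air within the shading, and the shading of RSL4, ORE1 and PDF1.2 is empty.

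The strand of each gene was not used here, so gene ends are called low-coordinate and high-coordinate, and no end is called the start. Exons and introns were not separated. Of the 18 peaks, 10 had a summit nearer to another coding gene than to the named one. The other 8 belonged to ARGOS, ARL and CHIB, at 3 genes in each ethylene library and at 1 gene, ARL, in air. By that narrower rule, 28.1% of all coding genes were called in ethylene library 1, 29.0% in ethylene library 2 and 26.2% in air. ARGOS and CHIB then had peaks in both ethylene libraries and not in air, a class of 4.83% of coding genes. This rule was chosen after the peaks were seen. Peaks that overlapped the gene body alone gave the same genes: 3 in each ethylene library (background 29.0% and 29.3%) and ARL in air (29.6%), with ARGOS and CHIB in both ethylene libraries and not in air (4.22%). So did a flank of 1000 bp for the class in both ethylene libraries and not in air (2 genes, background 5.92%).

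HLS1 had a single stretch with peaks, on chromosome 4 from 17661849 to 17662832 (TAIR10), in the 1961 bp between the high-coordinate end of HLS1 and NPY5. In ethylene library 1 the peak was 349 bp wide and held 48 tags, or 0.138 tags per bp, with a summit height of 16. Ethylene library 2 had 80 tags over 401 bp, or 0.200 tags per bp, with a summit height of 21. Air had 177 tags over 984 bp, or 0.180 tags per bp, with a summit height of 28. Both ethylene peaks lay wholly inside the wider air peak, but they shared no base with each other. Their summits were 1729 bp and 1206 bp beyond the end of HLS1 in ethylene libraries 1 and 2, against 1154 bp in air. All 3 summits were closer to NPY5, at 233, 756 and 808 bp. The peaks were weak: the scores were 50.07, 63.79 and 63.13, of which the first ranked 9138 among 9156 peaks.

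ARGOS carried 4 separate stretches on chromosome 3, and which of them was called differed between the libraries. The stretch at its low-coordinate end, from 22129344 to 22129879, was called in both ethylene libraries and not in air. Its summits lay 41 bp and 91 bp inside the gene in ethylene libraries 1 and 2, only 50 bp apart. Ethylene library 1 held 51 tags there, 0.134 tags per bp, with a summit height of 14. Ethylene library 2 held 115 tags, 0.215 tags per bp, with a summit height of 21. Scaled to depth, as tags per kb of peak per 1000000 kept tags, the density was 22.7 in each library. The fold enrichment was 3.01 and 2.87, below the list medians of 3.99 and 3.39.

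The one air peak at ARGOS lay farther out, from 22127600 to 22128168, with its summit 1686 bp before the low-coordinate end. Ethylene library 2 had an overlapping peak with its summit at 1554 bp, and ethylene library 1 had none there. That stretch held 136 tags with a summit height of 28 in ethylene library 2, against 116 tags and a height of 31 in air. Both summits were nearer to the neighbouring gene AT3G59890, at 1321 bp and 1189 bp. The other stretches of ARGOS were called in 1 library each. Ethylene library 2 had a 322 bp peak with its summit 443 bp before the low-coordinate end, with 62 tags and a height of 22. Ethylene library 1 had a 406 bp peak 279 bp beyond the high-coordinate end, with 57 tags and a height of 22. That last summit lay inside AT3G59910, which begins 10 bp after ARGOS. ARGOS was thus called in air and in both ethylene libraries, although the air peak shared no base with any peak of ethylene library 1.

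At least 2 peaks in the window were seen at 14.4%, 16.1% and 14.1% of coding genes in ethylene library 1, ethylene library 2 and air. ARGOS reached this in ethylene library 1, ARGOS and ARL in ethylene library 2, and ARL in air. At least 3 were seen at 2.66%, 3.51% and 2.45% of coding genes in these libraries. No member reached this in ethylene library 1, ARGOS and ARL did in ethylene library 2, and ARL did in air. The limits of 2 and 3 equal the highest counts of the members. Peaks covered 15.9% of the ARGOS window in ethylene library 1, 29.3% in ethylene library 2 and 11.5% in air. The ARL window was covered to 21.3% and 31.7% in the ethylene libraries and to 36.8% in air. ARL was the most covered of the 7 in every library, and 96.4%, 98.9% and 98.3% of all coding genes had less of their window covered in ethylene library 1, ethylene library 2 and air.

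ARL held the strongest peak of the group. It lay on chromosome 2 from 18234244 to 18235239 in air and was called in ethylene library 2 and air. Ethylene library 2 held 221 tags there, 0.249 tags per bp, with a summit height of 30 and a score of 245.02. Air held 250 tags, 0.251 tags per bp, with a summit height of 41 and a score of 272.3. The summits were 19 bp apart, and the peak ranked 508 by score among the 9958 of ethylene library 2 and 225 among the 8602 of air. Ethylene library 1 had no peak there. The summits sat 2270 bp and 2289 bp before the low-coordinate end of ARL in ethylene library 2 and air, so that only the inner part of each peak reached the 2000 bp flank. They were nearer to AT2G44070, at 1889 bp and 1870 bp.

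Over the ARL gene itself, ethylene library 2 and air each had a peak at either end. At the low-coordinate end, ethylene library 2 held 174 tags with a summit height of 24, and its summit lay 324 bp inside the gene. In air that peak held 236 tags with a height of 36, and its summit lay 77 bp inside. At the high-coordinate end, ethylene library 2 held 106 tags and air 85 tags, with summit heights of 21 and 28. These summits were 333 bp and 405 bp beyond ARL in ethylene library 2 and air, inside the gene AT2G44090, which begins after a gap of 95 bp. Ethylene library 1 had a single peak of 1146 bp over the high-coordinate end, with 166 tags, a summit height of 18 and a score of 171. Its summit was 278 bp inside ARL and 611 bp from that of ethylene library 2. It overlapped the high-end air peak by 443 bp and the low-end air peak by 18 bp, so that any shared base joins the peaks of the gene into 1 stretch of 2222 bp.

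ARGOS and ARL were alike in part. Each had an outer stretch on the low-coordinate side called in ethylene library 2 and air and not in ethylene library 1. Each also had summits inside the gene from the low-coordinate end. At ARGOS they lay 41 bp and 91 bp inside in ethylene libraries 1 and 2, with none in air. At ARL they lay 324 bp inside in ethylene library 2 and 77 bp inside in air. A summit beyond the high-coordinate end fell in the next gene at ARGOS in ethylene library 1 alone, and at ARL in ethylene library 2 and air, so that no library had it at both genes. The peaks over the ARL gene form 1 stretch called in all libraries, whereas those at ARGOS stay separate. The ends of ARL are joined only by 18 bp shared between a peak of ethylene library 1 and one of air. The difference between the genes was not tested.

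CHIB had 1 stretch, on chromosome 3 from 3961725 to 3962516, over its low-coordinate end. Ethylene library 1 held 106 tags, 0.154 tags per bp (exact Poisson 95% interval 0.126 to 0.186), with a summit height of 18. Ethylene library 2 held 127 tags, 0.193 tags per bp (0.161 to 0.229), with a summit height of 22. Air had no peak in the window, and its nearest peak began 4210 bp away. The ethylene peaks shared 556 bp, or 84.4% of the shorter peak. The summit of ethylene library 1 lay 108 bp inside CHIB, and that of ethylene library 2 lay 104 bp outside, in the gap of 215 bp between CHIB and the cystatin gene CYSB. At 112 bp from CYSB, the second summit was almost midway between both genes, so the peak cannot be given to CHIB alone. The score was above the list median in ethylene library 1 (92.38 against 86.58) and below it in ethylene library 2 (55.77 against 87.90), where the peak ranked 8943 of 9958. The fold enrichment was below the list median in both, at 3.15 against 3.99 in ethylene library 1 and 2.77 against 3.39 in ethylene library 2, and so were the summit heights, at percentiles of 21.9 and 26.6. With each list cut to the length of the shortest by score, the ethylene library 2 peak was lost, and 0 members were left with peaks in both ethylene libraries and not in air (background 5.48%).

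The lack of an air call at CHIB and at the low-coordinate end of ARGOS is not a measured zero. The lists give values only where the cutoff was passed. Of the air peaks, 95% had more than 19.0 tags per kb per 1000000 kept tags. The CHIB stretch reached 26.1 and 20.4 on that scale in ethylene libraries 1 and 2, against a median of 23.1 over the air peaks. The low-coordinate end of ARGOS, at 22.7 in both ethylene libraries, lay just under that air median. The list medians were 25.9 and 22.7 in ethylene libraries 1 and 2, so ethylene library 1 ran higher over its whole list. By tags per bp, the CHIB peaks stood at percentiles of 52.6 and 15.9 in these lists. Those at the low-coordinate end of ARGOS stood at 11.6 and 49.8. The cutoff is a p-value and not a density, so these values do not tell whether an equal air density would have been called. The air density at either place was not analysed here.

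RSL4, ORE1 and PDF1.2 had no peak in the gene or its flanks in any library. The nearest peaks to RSL4 began 5698 bp and 5775 bp away in ethylene libraries 1 and 2 and 5647 bp away in air. They belonged to a stretch called in all libraries near the ends of AT1G27750 and AT1G27752. The nearest peaks to ORE1 began 2941 bp and 2967 bp away in the ethylene libraries, against 11805 bp in air. Their summits, at 3101 bp and 3093 bp from ORE1, were 105 bp and 113 bp from the next gene, AT5G39600. The nearest peaks to PDF1.2 began 3095 bp and 3058 bp away in the ethylene libraries, against 5573 bp in air. PDF1.2 lies 1211 bp from its near copy PDF1.2c, which had no peak either, and how the authors placed reads that fit both copies is not given in the sources used here. A flank of 4000 bp, chosen after these positions were seen, would put ORE1 and PDF1.2 beside CHIB among the genes with peaks in both ethylene libraries and not in air, 3 of 7 against 7.15% of coding genes. It would call 6 members in ethylene library 1, 6 in ethylene library 2 and 3 in air. The background shares were 62.9%, 63.7% and 60.5% of coding genes. PDF1.2c would be called in air alone. Root hairs, where RSL4 acts, are not part of the shoot tissue that was sampled. Whether this bears on the lack of a peak at RSL4 was not tested.

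Among the genes that did carry peaks, the peaks were mostly weak for their lists. By score, 4 of the 18 lay above the median of their own list: the CHIB and ARL peaks of ethylene library 1, and the outer ARL peak of ethylene library 2 and of air. The median percentile of the members' peaks was 27.8 in ethylene library 1, 29.8 in ethylene library 2 and 18.8 in air. By fold enrichment 5 of the 18 were above the list median, by summit height 5, and by tags per bp 6. A score of at least 100 was reached by 1 member peak in each library. It was the peak over the ARL gene in ethylene library 1 and the outer ARL peak in ethylene library 2 and air. Over whole lists, 38.9%, 40.4% and 35.3% of peaks reached that score in ethylene library 1, ethylene library 2 and air. Over all coding genes, 23.1%, 24.2% and 20.3% kept a peak at that score in these libraries. In both ethylene libraries and not in air, 0 members were left, against 4.86% of coding genes. The fold enrichments of the members ran from 3.01 to 4.63 in ethylene library 1, from 2.45 to 4.23 in ethylene library 2 and from 2.82 to 4.49 in air. The highest in ethylene library 1 was that of the narrow peak beyond ARGOS.

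**Figure D2:**
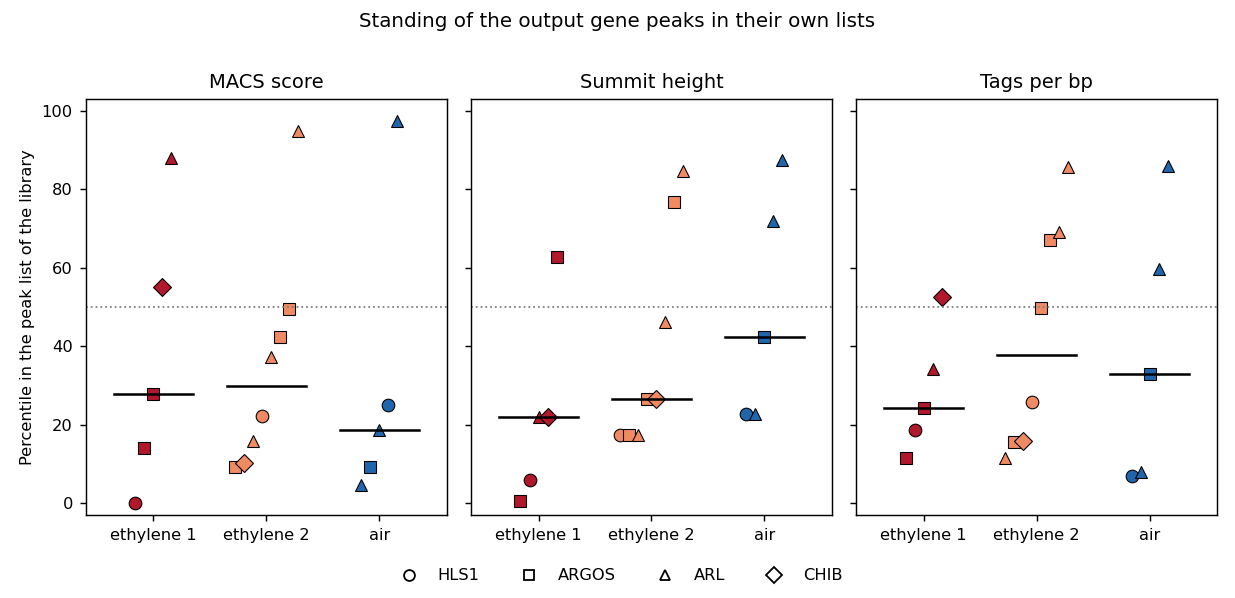
Percentile of each member peak in the peak list of its own library, by score (left), summit height (middle) and tags per bp (right). Symbols mark the gene, colours the library, horizontal bars the median of the member peaks, and the dotted line the median of the list. By score, 4 of the 18 peaks lie above the dotted line.

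At HLS1, ARL and the outer ARGOS stretch, 7 pairs of overlapping ethylene and air peaks were compared by depth-scaled tag density. The ARL pair that shares only 18 bp was left out. CHIB and the low-coordinate end of ARGOS have no air value, and the outer stretches of ARGOS and ARL have none in ethylene library 1. At HLS1 the density per 1000000 kept tags was 1.21 times that of air in ethylene library 1 (95% interval 0.862 to 1.68) and 1.09 times in ethylene library 2 (0.829 to 1.43). The outer ARGOS stretch had 24.1 tags per kb per 1000000 kept tags in ethylene library 2, against 21.9 in air, and the interval of the ratio was 0.853 to 1.42. At ARL, ethylene library 2 had 0.980 times the density of air at the outer stretch (0.814 to 1.18), 1.02 times at the low-coordinate end (0.832 to 1.24) and 1.03 times at the high-coordinate end (0.765 to 1.38). Ethylene library 1 had 1.26 times the density of air at the high-coordinate end (0.967 to 1.66), although its summit lay outside that air peak. Over whole lists the median density was also higher in ethylene library 1, at 25.9, against 22.7 in ethylene library 2 and 23.1 in air. The ratios were not corrected for this difference between lists. All 7 intervals include equal density, but they do not show equal binding. Only peaks that passed the cutoff in both libraries enter. The member peaks span a narrow range of 19.3 to 26.9 tags per kb per 1000000 kept tags. Each ratio is taken over peaks of different width, which were set by the caller in each library. In ethylene library 1 the summit was 575 bp from that of air at HLS1 and 683 bp at ARL. For the pairs of ethylene library 2 the gaps were 19 to 247 bp. The ratios of ethylene library 1 thus do not compare densities around a shared summit. The widths of the 18 peaks ranged from 322 to 1146 bp, and air peaks were wider in general, with a median of 673 bp against 488 bp in each ethylene library.

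**Figure D3:**
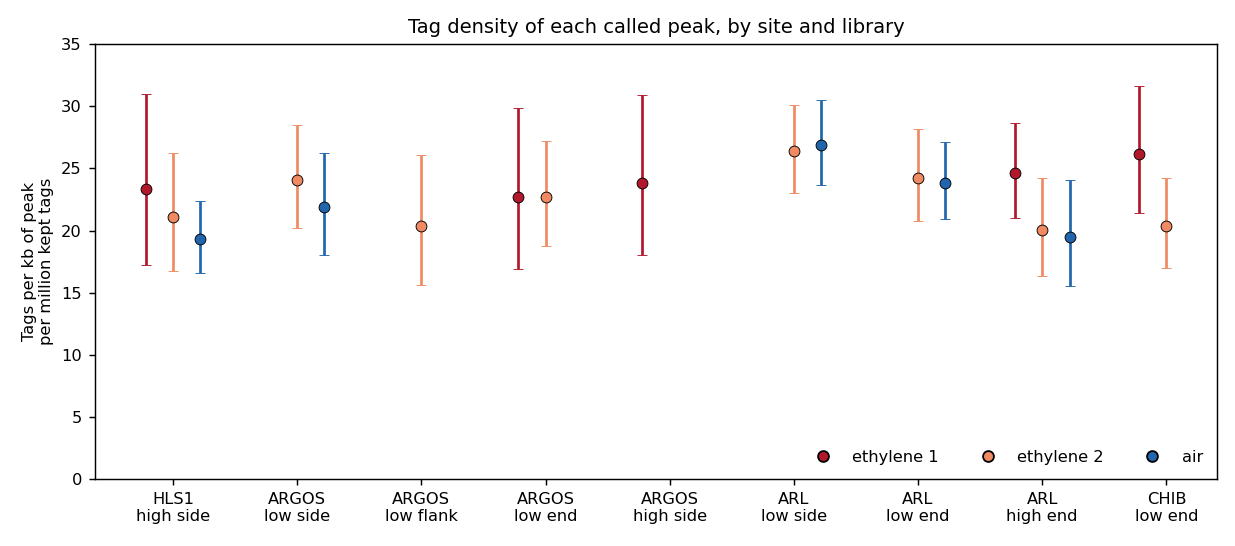
Tags per kb of peak per 1000000 kept tags for every called peak, by stretch and library. Points are single peaks and bars are exact Poisson 95% intervals of the tag count; a missing point means that no peak was called there. All points lie between 19.3 and 26.9, and at each stretch with an air peak the intervals of ethylene and air overlap.

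Genes that act with the members were examined in 5 lists covering the same outputs. Of 29 genes, 13 carried a peak in ethylene library 1, 14 in ethylene library 2 and 13 in air, or 44.8%, 48.3% and 44.8%, near the 49.0%, 49.9% and 47.1% of all coding genes. All 6 hook genes carried peaks in all 3 libraries, as did 32.7% of coding genes. None of the 5 root hair genes carried one in any, as was so for 35.8% of coding genes. The lists were chosen with earlier results of these data known, and their counts were not tested.

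The hook list held EIN3 and EIL1, the transcription factors that activate HLS1, COP1, a ubiquitin ligase that keeps seedlings in the dark programme, PIF3, ARF2 and MYC2. The largest fold enrichment at COP1 was 6.38 and 3.50 in ethylene libraries 1 and 2, against 2.40 in air. PIF3, a factor that acts in darkness, had 5.93 and 4.07 in the ethylene libraries, against 3.09 in air. ARF2, an auxin response factor whose protein level depends on HLS1, had 3, 5 and 5 peaks in ethylene library 1, ethylene library 2 and air. The largest folds at EIL1 were 4.54 and 4.51 in the ethylene libraries, against 3.45 in air. MYC2, a jasmonate factor that restrains EIN3 at the hook, had 3.99 and 4.16 in the ethylene libraries, against 4.12 in air. The MYC2 summits inside the gene also lay inside AT1G32630. EIN3 had 3 peaks in each ethylene library and 1 in air, with largest folds of 4.36 and 4.07 under ethylene, against 3.57 in air. By score, the air peak stood at a percentile of 92.1, above the highest of 86.4 and 62.8 in ethylene libraries 1 and 2. At EIN3, 1 summit in each ethylene library was nearer to a neighbour, AT3G20760 or TOP6B. The outermost summits at ARF2 fell in or beside HSFB2A and AT5G61997. Only a rank within a list can be read from these folds, since the list medians were 3.99, 3.39 and 3.11 in ethylene library 1, ethylene library 2 and air. HLS1 itself, with folds of 3.19, 3.08 and 2.88, was below the median in each.

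Of the 4 organ growth genes, ANT, a factor downstream of ARGOS, was called in all libraries, with folds of 4.07 and 3.77 under ethylene, against 2.98 in air. Its summits were nearer to SQE3, at 490 and 449 bp under ethylene and 242 bp in air, than to ANT. The D-type cyclin gene CYCD3;1 was called in ethylene library 2 and air, OSR1, a relative of ARGOS, in ethylene library 2, and RTE1, which acts with the receptor ETR1, in none. The root hair genes RHD6, RSL1, RSL2, AT2G14760 and AT5G43175 had no peak, like RSL4. The OSR1 summit was nearer to AT2G41231, at 174 bp against 392 bp from OSR1. In the senescence list, NYE1, which starts chlorophyll breakdown, was called in all libraries, with folds of 3.76 and 2.68 under ethylene, against 2.73 in air. NAP, a senescence NAC factor, was called in ethylene library 2 and air, PAO, an enzyme of chlorophyll breakdown, in ethylene library 1, and MIR164B, a locus of the microRNA that targets ORE1, in ethylene library 1 and air. The summits of MIR164B were nearer to AT5G01750, that of NAP in ethylene library 2 was about as near to AT1G69485, and that of NYE1 in air was nearer to PYR4. ANAC059, another NAC factor, the nuclease gene BFN1 and MIR164A had no peak.

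In the defence list the chitin-binding protein gene HEL and the defensin gene PDF1.1 were called in all libraries. At HEL the peak was among the strongest of each list, with scores of 391.28 and 514.11 in ethylene libraries 1 and 2 and 656.45 in air, but its summits were nearer to IAA16. At PDF1.1 the ethylene summits were nearer to ARAC5, at 1072 and 1056 bp, as was 1 of the air summits. ORA59, a factor that activates PDF1.2, was the only related gene called in both ethylene libraries and not in air, with folds of 3.93 and 4.65. Its ethylene peaks lay at different stretches, 793 bp beyond the high-coordinate end in ethylene library 1 and 183 bp before the low-coordinate end in ethylene library 2. The summit in ethylene library 1 was nearer to AT1G06170, at 196 bp. ERF1, which activates the same gene, had no peak in any library, nor had PDF1.2b, PDF1.2c and PDF1.3.

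**Figure D4:**
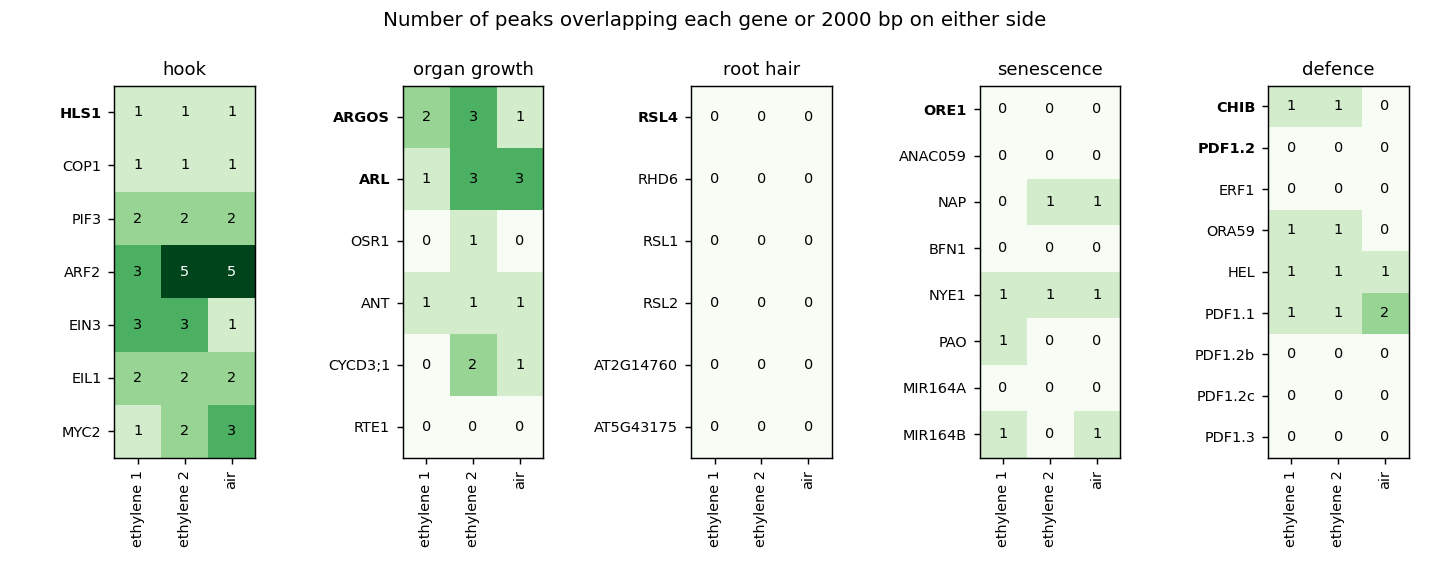
Number of peaks overlapping each gene or its 2000 bp flanks in ethylene library 1, ethylene library 2 and air, by output. The 7 output genes are in bold and the 29 related genes in plain type, and darker cells hold more peaks. All rows of the hook panel hold at least 1 peak in every library, and all rows of the root hair panel hold 0.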

How the data were processed

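TREE1-GFP ChIP-seq peaks were taken from 3 libraries. The submitters' processing notes name BWA and the TAIR10 genome. Peaks were called by the authors with MACS 1.4.2 in each ChIP library against the input of its treatment (p cutoff 1e-05, 1 tag kept per position), per the file headers. Both ethylene libraries share an input. Run names in those headers carry another protein name; TREE1 follows the labels. Deposited tags per peak are counts. The deposited score, fold enrichment (a ratio to local background) and FDR (a percent) are the authors', per the file headers. Deposited summit heights are a signal, the pileup.

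Gene positions and names came from a RefSeq table of TAIR10.1, without strand; all 7 members and 29 related loci matched, and AT2G14760 and AT5G43175 have no symbol there. Both sets of positions were checked by shifting summits to 2000 bp away every 100 bp: for each library on each chromosome (15 of 15), the unshifted summits fell least often inside coding genes. No gene sequence was used, so the planned motif search was not run. Tag counts have exact Poisson 95% intervals, and density ratios exact binomial ones. The percentile of a peak is the share of its list with a lower value. Gene calling was tested on simulated data. Members, lists and the naming rule (every member and related gene, with neighbours nearer to a summit) were chosen with earlier results of these data known. Software was Python 3.11.15 with scipy 1.17.1, pandas 2.3.3, numpy 2.4.6 and, for plots, matplotlib 3.10.9.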

Additional observations from a re-analysis of the deposited data

How the results depend on the processing

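The lists hold only what passed the cutoff, so a gene without a peak is not shown to be unbound. Ethylene library 1 had the fewest kept tags but not the fewest peaks, and the part of depth in its calls was not tested. The counts of members depended most on peak strength and on distance. A score of at least 100 left 1 member in each library (ARL, not by the same stretch), against 23.1%, 24.2% and 20.3% of coding genes. It left 8 of 29 related genes in ethylene library 1, where that background was 23.1%. It left 0 members with peaks in both ethylene libraries and not in air (background 4.86%). Lists of equal length also left 0 in that class (5.48%). The gene body alone left 1 member in air (29.6%) and put 2 members (ARGOS and CHIB) in that class (4.22%). By the gene body, 8 of 29 related genes were left in each library, near the 29.0%, 29.3% and 29.6% of coding genes. A flank of 1000 bp also put 2 members in that class (5.92%). The next 2 settings were chosen after seeing the data. Requiring the member to be the coding gene nearest to the summit left 1 member in air (26.2%) and put 2 in the class (4.83%). A flank of 4000 bp put 3 there (ORE1, CHIB and PDF1.2), against 7.15% of coding genes. Without one or the other ethylene library, the members called in an ethylene library stayed at 4, those called there and not in air at 1, and the related genes were 13 to 14. The members whose peaks shared a base between libraries were 2 to 3, against 4 with both. Unscaled, ethylene library 1 had 0.765 times the tag density of air at HLS1 and 0.798 times at the high-coordinate end of ARL; per 1000000 kept tags these ratios turned to 1.21 and 1.26, since that library is shallower. Ranked by fold enrichment, the median percentile of member peaks was 9.21 in ethylene library 1, 27.1 in ethylene library 2 and 40.2 in air; ranked by summit height it was 21.9, 26.6 and 42.4. No paired analysis was possible because the air treatment has 1 ChIP library and no test was made.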

Other observations

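Just outside the 2000 bp flanks, from 2000 to 4000 bp from the genes, lay 8 further peaks at 4 of the genes, 3 in ethylene library 1, 5 in ethylene library 2 and 0 in air. This range was chosen after the positions were seen. The share of all coding genes with a peak in this range alone was not computed, so the split between libraries has no background. The 8 peaks formed 5 stretches. Of these, 3 were called in both ethylene libraries and not in air (11.3% of all stretches), near ARGOS, ORE1 and PDF1.2. The other 2 were called in ethylene library 2 alone (15.1%), near ARL and ORE1. Near ARGOS, ethylene library 1 held 83 tags and ethylene library 2 held 149, with summits 79 bp and 214 bp from AT3G59890, which is nearer. The pair near ORE1 held 47 and 92 tags, with summit heights of 22 and 21 and folds of 4.91 and 2.91. The pair near PDF1.2 held 54 and 78 tags, with summit heights of 23 and 20 and folds of 5.18 and 3.03, and PDF1.2 was the nearest coding gene to its summits, at 3293 bp and 3239 bp. With a flank of 4000 bp, 6 of the 7 genes had peaks in ethylene library 1, 6 in ethylene library 2 and 3 in air, against 62.9%, 63.7% and 60.5% of coding genes, and 3 had peaks in both ethylene libraries and not in air, against 7.15%. Of the 29 related genes, only MIR164A was in that class with this flank. ORA59 was then called in all 3 libraries and PDF1.2c in air alone. A wider flank reaches more neighbours, and these counts were not tested.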
